A study of Mus musculus with 2 samples.

Results

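The miR-15 and miR-16 family was followed through its precursor genes in small RNA libraries of mouse adrenal gland. The members were chosen by symbol in the GENCODE M21 annotation, namely Mir15a, Mir15b, Mir16-1, Mir16-2 and each symbol that reads Mir195 or Mir497 with at most 1 letter after it. The choice gave 8 of the 2202 annotated miRNA genes, and the added letters brought in Mir195a, Mir195b, Mir497 and Mir497b. Of these 8, 6 were detected, which here means at least 10 counts in each library.

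The glands came from female B6CASTF1/J mice, the F1 hybrid of C57BL/6J and CAST/EiJ, at 14 days of age, with no treatment named. Both libraries, biological replicates 1 and 2, form 1 group, so nothing here compares conditions. The label of replicate 1 names 3 females and that of replicate 2 names 1, while both give the same donor identifier. Differences between the libraries therefore measure spread between samples that may have been pooled differently, and p-values refer to the reads of these libraries alone.

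MicroRNAs of this family are known as brakes on cell division. Loaded into Argonaute, they pair through a seed near their 5′ end with messenger RNAs of D-type and E-type cyclins, cyclin-dependent kinases and the survival factor Bcl2. The pair of Mir15a and Mir16-1 is the classic tumour suppressor lost in chronic lymphocytic leukaemia, and miR-195 is known for restraining cardiomyocyte division after birth. The deposited counts are per hairpin gene and sum its arms.

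The mature sequences, from RefSeq on build GRCm38.p6, show why these genes count as 1 family and where they can be told apart. All are written 5′ to 3′ with bases 2 to 8, the seed, in capitals.
miR-15a-5p: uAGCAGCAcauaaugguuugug
miR-15b-5p: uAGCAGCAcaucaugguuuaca
miR-16-5p: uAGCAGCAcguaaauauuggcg
miR-195a-5p: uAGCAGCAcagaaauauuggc
miR-195b: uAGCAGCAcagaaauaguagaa
miR-497a-5p: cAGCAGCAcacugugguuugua
miR-497b: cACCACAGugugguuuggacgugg

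All 8 members matched the RefSeq table, and 7 of them carry the seed AGCAGCA. Only miR-497b, from the hairpin on the opposite strand of Mir497, has another seed. The seed was carried by 10 of 1679 mature names in the table (0.596%), and how often other seeds occur was not tested. Outside the seed the mature sequences that carry it differ from one another. Over 21 compared bases, miR-195a-5p differed from miR-16-5p at 2 positions counted from the 5′ end, G10A and U11G, and from miR-15a-5p at 6. miR-15a-5p and miR-15b-5p differed at 4 of 22 positions (A12C, G20A, U21C and G22A). Against miR-15a-5p, miR-497a-5p differed at 5 of 22.

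The miR-16-5p arm is the same at both of its genes, and the hairpins share a run of 23 bases there, uagcagcacguaaauauuggcgu. The 5p arms of Mir15a, Mir15b, Mir195a and Mir497 were found in no other hairpin of the table. The 3p arms of the Mir16 genes do differ and could be assigned to 1 gene each.
miR-16-1-3p: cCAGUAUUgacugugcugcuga
miR-16-2-3p: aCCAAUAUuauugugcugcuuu
Reads that mapped to several places were tallied apart from the genes, 3002371 in replicate 1 and 2795730 in replicate 2, against 32776 and 55527 counts on the whole family. How many of those reads were miR-16-5p was not tested. The values of Mir16-1 and Mir16-2 may therefore be too low for their hairpins, and the low place of either gene does not show that miR-16 was scarce.

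The family sits at 3 loci, plus 1 gene apart. On chromosome 14, minus strand, Mir15a (61632027 to 61632110) lies in an intron of Dleu2, a long noncoding RNA gene. Mir16-1 (61631880 to 61631972) follows after 54 bases and overlaps an annotated exon of Dleu2. On chromosome 3, plus strand, Mir15b (69009772 to 69009835) and Mir16-2 (69009902 to 69009996) lie 66 bases apart in an intron of Smc4, which encodes a condensin subunit needed to compact chromosomes. On chromosome 11, plus strand, Mir497 (70234717 to 70234800) and Mir195a (70235042 to 70235135) lie 241 bases apart. Apart from the opposite-strand Mir497b (70234692 to 70234816), which covers all 84 bases of Mir497, no annotated gene overlaps them. Mir195b lies alone on chromosome 2 (56785811 to 56785907). Coordinates are those of GENCODE M21 on mm10.

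**Figure D1:**
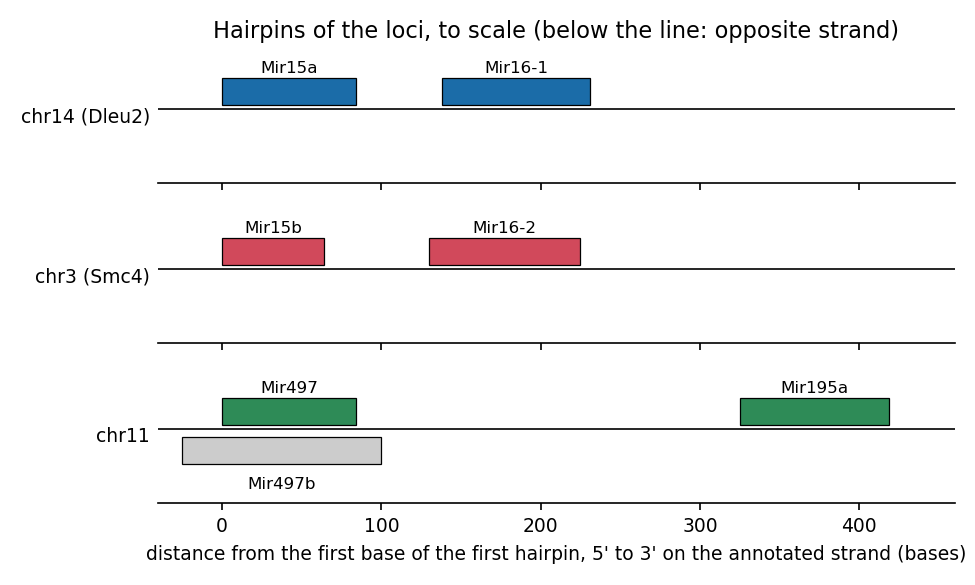
Hairpins of the 3 loci drawn to scale, with the distance in bases from the first hairpin on the horizontal axis and boxes below the line on the opposite strand. The pairs on chromosomes 14 and 3 are 54 and 66 bases apart and the pair on chromosome 11 is 241 bases apart.

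Library depth and tissue markers set the frame for the values. Replicate 1 had 3797107 counts on miRNA genes and replicate 2 had 5034257. A limit of 3 counts, an approximate upper 95% limit for a count of 0, stands for 0.790 and 0.596 CPM (counts scaled to the miRNA total of the library). Intervals and this limit cover counting error only. The tables hold miRNA genes alone, so mRNA markers of adrenal cells were not measured. Mir126a of endothelium, at 142267 and 140629 CPM, and Mir375 of endocrine cells, at 33797 and 17616 CPM, were high in both. Replicate 2 stood apart by its liver marker Mir122, at 2896 and 214538 CPM, and its skeletal muscle marker Mir206, at 27.9 and 1552 CPM. Of the other listed muscle markers, Mir1a-1 had 0 counts in both libraries and Mir133b had 0 and 3. Reads that mapped to several places are not in these counts, so a count of 0 does not show that a mature RNA was absent. Because Mir122 took so much of the replicate 2 total, log2 ratios between libraries use TMM factors (1.16 and 0.862), which scale on the bulk of genes.

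Together the 8 members held 0.863% of miRNA counts in replicate 1 and 1.10% in replicate 2 (Wilson 95% intervals of 0.854 to 0.873 and of 1.09 to 1.11), a mean of 0.983% ± 0.170 (SD, n = 2). The difference came from 1 gene. Without Mir195a the other members held 0.716% and 0.590%, and their summed log2 ratio of replicate 2 over replicate 1 was 0.15, against 0.78 for the whole family. With Mir122 left out of the totals the family held 1.13% ± 0.381 (SD, n = 2).

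Mir15a had 10772 counts in replicate 1 and 14149 in replicate 2. These are 2837 and 2811 CPM, a mean of 2824 ± 18.6 (SD, n = 2), and ranks 44 and 40 among all genes. The near equality holds for CPM and not under TMM scaling, where its log2 ratio was 0.42. Its neighbour Mir16-1 had 6158 and 5049 counts, or 1622 and 1003 CPM. The first hairpin of the Dleu2 locus thus stood above the second in both libraries, by 1.75-fold (1.70 to 1.80) and 2.80-fold (2.71 to 2.89). Since miR-16-5p reads fit the hairpins of both Mir16 genes, this ratio may not be that of the mature RNAs.

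At the Smc4 locus the same order held. Mir15b had 6412 and 6430 counts, or 1689 and 1277 CPM, a mean of 1483 ± 291 (SD, n = 2). Mir16-2 had 1744 and 1514 counts, or 459 and 301 CPM, the lowest of the detected members. Mir15b stood above Mir16-2 by 3.68-fold (3.49 to 3.88) and 4.25-fold (4.02 to 4.49). In these counts Mir16-1 stood above Mir16-2 by 3.53-fold (3.35 to 3.72) and 3.33-fold (3.15 to 3.53), intervals that overlap. Mir15a stood above Mir15b by 1.68-fold (1.63 to 1.73) and 2.20-fold (2.14 to 2.27), intervals that do not. Reads that fit both Mir16 genes may be missing, so the ratios that involve Mir16-1 or Mir16-2 may not be those of the mature RNAs.

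At the chromosome 11 locus the libraries parted. Mir195a had 5574 counts in replicate 1 and 25812 in replicate 2, or 1468 and 5127 CPM, with ranks 66 and 33. Mir497, 241 bases before it on the same strand, had 2116 and 2573 counts, or 557 and 511 CPM, a mean of 534 ± 32.6 (SD, n = 2). So Mir195a was far higher in replicate 2 while Mir497 was nearly level between the libraries in CPM. Under TMM scaling the log2 ratio of Mir497 was 0.30. Mir195a stood above Mir497 by 2.63-fold in replicate 1 (2.51 to 2.77) and by 10.03-fold in replicate 2 (9.63 to 10.4), a change of 3.81-fold that no scaling of the libraries can alter.

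The 2 remaining members, Mir195b and Mir497b, were not detected. Mir195b had 0 counts on either strand in both libraries, where the limit of 3 counts stands for 0.790 and 0.596 CPM. Its Wilson 95% intervals ended higher, at 0.000101% and 7.63e-05% of miRNA counts, against 7.90e-05% and 5.96e-05% for that limit. Its mature RNA differs from miR-195a-5p at 3 of 21 positions (U17G, G19A and C21A). Mir497b had 0 counts on its own strand. Its opposite strand held 2116 and 2573 counts, exactly those of Mir497, whose hairpin it covers. In the column that ignores strand, Mir497 and Mir497b were both listed at 0. That column tallied 959702 and 1162285 reads as ambiguous, beside 0 and 1 in the column of the gene's own strand. Across the other 6 members the opposite-strand count was 0 in both libraries.

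**Figure D2:**
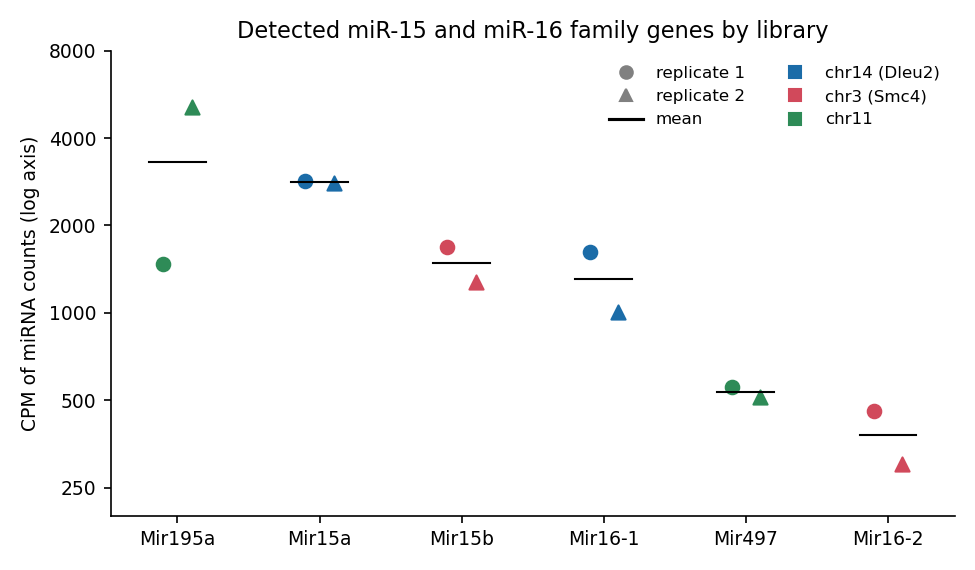
CPM of miRNA counts (log axis) of the 6 detected members, circles for replicate 1, triangles for replicate 2 and a bar for the mean, coloured by locus. Mir15a is at 2837 and 2811 CPM, while Mir195a is at 1468 and 5127 CPM.

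In order of the mean, the members ran Mir195a at 3298 ± 2588 CPM, Mir15a at 2824 ± 18.6, Mir15b at 1483 ± 291, Mir16-1 at 1312 ± 438, Mir497 at 534 ± 32.6 and Mir16-2 at 380 ± 112 (SD, n = 2 throughout). The mature RNAs are 21 to 24 bases long, and levels were not divided by length. Among the 5 members other than Mir195a, the order was the same in both libraries, with Mir15b and Mir16-1 closer to each other than their SDs. The gap between Mir497 and Mir16-2 was wider than either SD. Mir195a moved from 4th in replicate 1 to 1st in replicate 2, so its place above Mir15a on the mean rested on replicate 2 alone.

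By locus, chromosome 14 held 51.7% of the family counts in replicate 1 (51.1 to 52.2, Wilson 95% interval) and 34.6% in replicate 2 (34.2 to 35.0), a mean of 43.1% ± 12.1 (SD, n = 2). Chromosome 3 held 24.9% (24.4 to 25.4) and 14.3% (14.0 to 14.6), a mean of 19.6% ± 7.48. Chromosome 11 held 23.5% (23.0 to 23.9) and 51.1% (50.7 to 51.5), a mean of 37.3% ± 19.6. Chromosome 14 stood above chromosome 3 in both libraries, by 2.08-fold (2.02 to 2.13) and 2.42-fold (2.35 to 2.48). Chromosome 11 went from the lowest of the 3 to the highest. With 2 libraries an exact paired permutation test cannot give a two-sided p below 0.5, so the order of the loci was not tested over samples.

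The shift of the loci rested on Mir195a. Without it the shares were 62.2% and 64.6% for chromosome 14, 30.0% and 26.7% for chromosome 3, and 7.78% and 8.66% for chromosome 11, a setting chosen after the values had been seen. Reads of miR-16-5p that fit both Mir16 genes may be missing from the shares of chromosomes 14 and 3, and how they would move each share was not tested. With both Mir16 genes left out, the means for chromosomes 14, 3 and 11 were 36.1% ± 10.2, 19.5% ± 8.94 and 44.4% ± 19.1 (SD). This puts chromosome 11 first on the mean, although the leading locus of each library stayed the same. In replicate 1 chromosome 11 then held 7690 counts, above the 6412 of Mir15b on chromosome 3. It was thus no longer the lowest there.

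**Figure D3:**
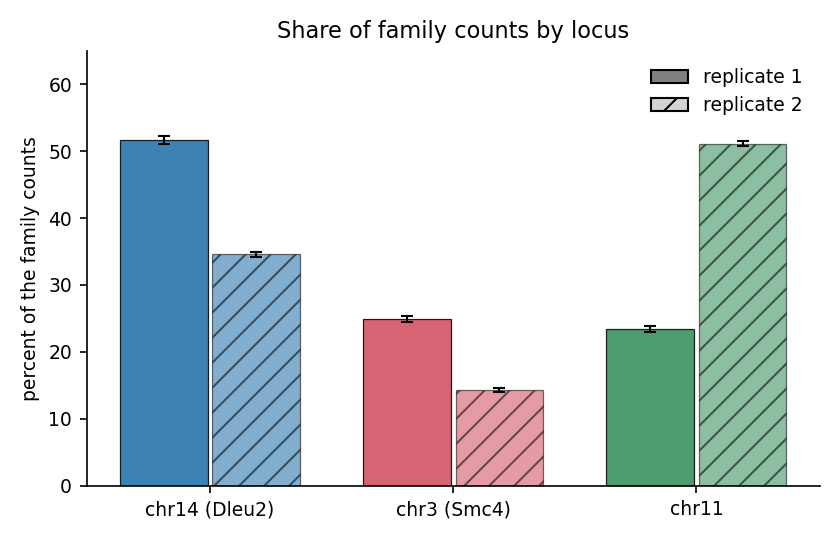
Percent of the family counts held by each locus, plain bars for replicate 1 and hatched bars for replicate 2, with Wilson 95% intervals for counting error. Chromosome 11 stands at 23.5% and 51.1%, and chromosome 14 at 51.7% and 34.6%.

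Set against every gene, Mir195a was the 1 member that passed the test between libraries. The test was an exact two-sided binomial test of the counts with Benjamini-Hochberg adjustment over the 358 detected genes, and a call needed an adjusted p under 0.05 with a log2 ratio of 1 or more in size. Its log2 ratio of replicate 2 over replicate 1 was 2.23 (95% counting interval 2.19 to 2.28), a 4.70-fold difference and the 10th highest of 358. Of the 6 detected members 1 was called higher and 0 lower, beside 9.22% of all tested genes called higher and 8.66% called lower. With 6 members, 1 call is too few to set the family apart from that background. With library totals in place of TMM, 18 genes were called higher and 79 lower, against 33 and 31, and Mir195a was still called, at 1.80.

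The other members stayed under the ratio minimum. Mir15a had a log2 ratio of 0.42 (0.38 to 0.45) and Mir497 of 0.30 (0.22 to 0.39). Mir15b stood at 0.03 (-0.02 to 0.08), with an interval that holds 0. Mir16-2 stood at -0.18 (-0.28 to -0.08) and Mir16-1 at -0.26 (-0.32 to -0.21). With library totals, Mir15a, Mir497 and Mir15b turned to -0.013, -0.12 and -0.40, so no direction is given for these 3 members. Without the ratio minimum 5 of the 6 passed, beside 67.9% of all tested genes. The members' median log2 ratio was 0.17 and that of all tested genes -0.06, and with library totals they were -0.26 and -0.49.

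Mir195a was not called by edgeR's exact test, which takes in a spread estimated from the same libraries (coefficient of variation 0.444). There its log2 ratio was 2.23, and no member passed. That tool called 6 of 358 genes. The difference in Mir195a was thus larger than counting error, and it did not pass a test that allows for the spread edgeR estimated between these libraries.

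Neighbouring hairpins are often cut from 1 primary transcript, so their ratios give a measure that needs no scaling. Among all detected genes, 114 pairs of neighbours on 1 strand lay under 10000 bases apart, and their log2 ratios differed by a median of 0.68. Mir15b and Mir16-2 differed by 0.21 and Mir15a and Mir16-1 by 0.68, at or under that median. Reads that fit both Mir16 genes may be missing from these pairs, and how they would move the differences was not tested. Mir195a and Mir497 differed by 1.93, 9th of 114. Among the 31 pairs with at least 1000 counts for each gene in each library, theirs was the widest gap, beside a median of 0.66. This count over neighbours, and its depth minimum, were chosen after the values had been seen, and it is given as a description.

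**Figure D4:**
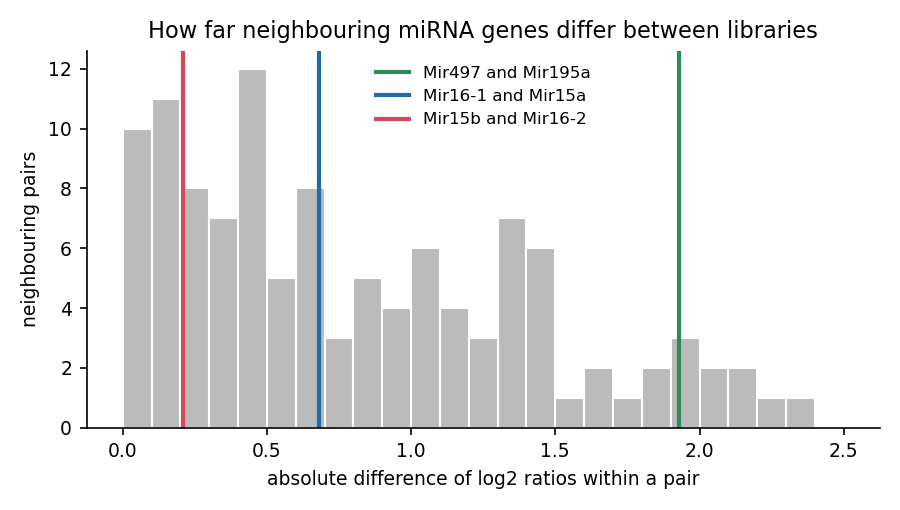
Histogram of the absolute difference in log2 ratio within 114 pairs of neighbouring detected miRNA genes, with vertical lines for the 3 pairs of the family. Mir195a and Mir497 lie at 1.93, far to the right of the median of 0.68.

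Genes outside the family also carry this seed. Mir322, of an X-linked cluster induced in growing tissue, has the seed AGCAGCA in miR-322-5p. Mir107 and the Mir103 genes begin the same motif 1 base earlier, so their bases 2 to 8 differ.
miR-322-5p: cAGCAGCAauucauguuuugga
miR-107-3p: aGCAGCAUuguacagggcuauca
miR-503-5p: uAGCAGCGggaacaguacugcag
Mir322 had 98251 and 57052 counts, or 25875 and 11333 CPM, well above any member. It therefore held 75.0% and 50.7% of the counts on all genes with this seed, and the members held 25.0% and 49.3%. In all, genes with the seed held 3.45% of miRNA counts in replicate 1 and 2.24% in replicate 2, lower in replicate 2 although the family itself was higher. Mir122 is part of these totals. Under TMM scaling the summed log2 ratio of genes with the seed was -0.20, against 0.78 for the family. These counts sum both arms of a hairpin, and miR-322-3p has another seed. They may also lack miR-16-5p reads that fit both Mir16 genes. Which genes gave more mature RNA with the seed was not tested. The other genes with the seed, Mir6342, Mir6353 and Mir6419, had 0 counts in both libraries.

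The extended group of Mir322, Mir503, Mir103-1, Mir103-2 and Mir107 had 5 of 5 members detected. Of these, 0 were called higher and 0 lower, beside 9.22% of all tested genes called higher and 8.66% lower. With 5 genes, 0 calls does not set the group apart from that background. Its median log2 ratio was -0.76, beside -0.06 for all tested genes. With library totals, 3 of the 5 were called lower, namely Mir322, Mir107 and Mir103-2, under a scaling that called 79 of all 358 genes lower. Mir107, which lies in the pantothenate kinase gene Pank1, had 3825 and 1644 CPM and a log2 ratio of -0.79 (-0.83 to -0.75). Mir322 stood at -0.76 (-0.78 to -0.75), and Mir503, its cluster neighbour, at -0.17 (-0.28 to -0.07) from 423 and 279 CPM. Mir103-1 had 16 and 17 counts and Mir103-2 had 131 and 70, and their miR-103-3p arms are the same, as with miR-16-5p. The median of the family was above that of this group, and no test of the difference was made.

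A list of 14 other miRNA genes linked to the cell cycle, from the proliferation-promoting Mir17 and Mir106b clusters, the p53-induced Mir34 genes and the pair Mir221 and Mir222, had 13 detected. Of these 0 were called higher and 4 lower, with a median log2 ratio of -0.59, beside 9.22% of all tested genes called higher and 8.66% lower. The 4 were Mir34c, Mir34b, Mir222 and Mir221, at -1.87, -1.47, -1.65 and -1.34, and with library totals 8 were called lower, beside 79 of all 358 genes. With DESeq2 size factors the same 4 were called lower and Mir92-1 was called higher. The 3 most abundant, Mir93, Mir17 and Mir20a, had 5364 and 2312, 4976 and 2446, and 2181 and 1082 CPM. Mir15a lay between Mir17 and Mir20a in replicate 1 and above all 3 in replicate 2.

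The detected genes with levels most like those of Mir195a, by distance in log2 CPM over the 2 libraries, were Mir125a at 1.05, Mir28a at 1.15 and Mir214 at 1.20. Mir125a had 2940 and 6311 CPM, Mir28a 2076 and 2508, and Mir214 1415 and 2233. Their log2 ratios were 1.53, 0.70 and 1.09, all under that of Mir195a. Likeness over 2 libraries is mostly likeness of level.

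Single genes of the marker lists also differed between the libraries, beside 9.22% of all tested genes called higher and 8.66% lower. The counts leave out reads that mapped to several places. Among the smooth muscle and stromal markers, Mir145a and Mir214 were called higher at log2 ratios of 1.27 and 1.09, Mir143 stood at -0.13 and Mir199a-1 had 3 and 0 counts. The list summed to 47866 and 34885 CPM, most of it Mir143, while its median log2 ratio was 1.09, and with library totals none of it was called. The red cell markers (3 of 3 detected) summed to 2236 and 560 CPM, with Mir451a called lower at -2.03 and Mir144 and Mir486 not called, at -0.37 and -0.12. The leukocyte markers (4 of 4 detected) summed to 2160 and 1070 CPM, with Mir142 called lower at -1.44. The other 3, Mir150, Mir223 and Mir155, were not called, at 0.61, 0.43 and 0.03, and the list's median was 0.23. The endocrine markers (2 of 2 detected) summed to 34133 and 17785 CPM with none called, Mir375 at -0.51 and Mir7-1 at -0.56. Sums in CPM are shares of totals that include Mir122, whereas the log2 ratios use TMM factors. In bulk tissue, fewer cells of a type and less RNA per cell cannot be told apart. The part of these marker genes, and of Mir122 and Mir206, in the level of Mir195a was not tested.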

How the data were processed

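Small RNA of 2 adrenal gland libraries was counted per miRNA gene. The authors deposited raw counts, whole numbers without normalization, in 3 count columns after 4 summary lines. Per the text files beside the tables, the build was mm10 and the annotation GENCODE M21. The choice of aligner, counter and trimming is not given in the sources used here. Columns carry no names. The third, with more counts on miRNA genes in both libraries, was taken for the gene's own strand, the fourth for the opposite strand and the second for counts that ignore strand. Summary lines stayed out of library totals. All 2202 identifiers matched GENCODE M21.

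CPM, shares with Wilson 95% intervals, and log2 ratios with TMM factors, a prior count of 0.5 and exact Clopper-Pearson 95% counting intervals were computed. TMM factors came from genes with at least 10 counts in each library. An exact two-sided binomial test was made for each such gene, adjusted by Benjamini-Hochberg over all of them. The statistics were tested on simulated data that held counting error alone, without spread between samples, so this says nothing about such spread. Alternatives were the unstranded column, library totals, totals without Mir122, DESeq2 size factors, edgeR's exact test, minimums of 1 and 100 counts, a prior count of 5, each replicate left out, and the Mir16 genes left out. Leaving out Mir195a was added after its values had been seen. A locus joined members under 50000 bases apart.

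The members, the lists and the rule for named genes were chosen with earlier results of these data known. That rule took every member, the genes that share the seed, the extended group, the 3 genes nearest the most abundant member, opposite-strand partners, and up to 3 most abundant members of the cell cycle list. The 4 genes called on that list and the marker genes were named in addition. Tests and plots ran in R 4.3.3, with edgeR 4.0.16 and DESeq2 1.42.0, and in Python 3.11.15, with scipy 1.17.1, pandas 2.3.3, numpy 2.4.6 and matplotlib 3.10.9.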

Additional observations from a re-analysis of the deposited data

How the results depend on the processing

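Of 59 alternative values that leave out no replicate, 48 kept their direction and their side of the threshold or stayed within 1 SD. That tally is not a measure of stability, because some of these values could hardly change. A larger prior count and other count minimums barely touch the detected members, whose counts lie far above them. Log2 ratios from edgeR nearly equalled the main ones. The 1 SD rule also passed the mean locus shares without the Mir16 genes. There chromosome 11, at 44.4%, stood above chromosome 14, at 36.1%. So the leading locus of the mean changed, while that of each library did not. With 2 libraries, leaving out 1 always lands within 1 SD of the mean, so those values say nothing about stability. The family share was 1.22% in the unstranded column, where the total lacks reads over overlapping genes, and ran from 0.863% to 1.10% with 1 replicate left out. Locus shares with 1 replicate left out ran from 34.6% to 51.7% for chromosome 14, from 14.3% to 24.9% for chromosome 3 and from 23.5% to 51.1% for chromosome 11, and the order of the loci changed with the library kept. With Mir195a left out, which was tried once its values were known, the family held 0.653% and chromosomes 14, 3 and 11 held 63.4%, 28.4% and 8.22% of its counts. Under edgeR's exact test 0 members were called higher, and Mir195a kept a log2 ratio of 2.23 with an adjusted p of 0.761. Its binomial log2 ratios ran from 1.80 to 2.29 and passed under each scaling tried. With library totals the log2 ratios of Mir497, Mir15a and Mir15b turned to -0.12, -0.013 and -0.40, and that of Mir15b turned to -0.059 with totals less Mir122. Library totals moved the median of all genes from -0.06 to -0.49, and the calls over all genes from 33 higher and 31 lower to 18 and 79. Mir497 has no ratio in the unstranded column, where it is at 0. No paired analysis was possible because the series holds 1 group. A log2 ratio between the libraries cannot be had with 1 left out.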
